A study of Mus musculus with 5 samples.

Results

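The 2 libraries described here hold the acetylation of lysine 14 of histone H3 (H3K14ac) in Hbo1 knockout LSK cells. They are 2 of the 5 libraries of the series and 2 of the 4 H3K14ac libraries, and they were chosen by their label alone. Per the labels, the cells were bone marrow LSK cells of male C57BL/6 mice with the genotype Hbo1def/def; T/+, and the antibody was abcam ab52946. LSK cells are sorted as lacking lineage markers and carrying Sca-1 and Kit. The control H3K14ac libraries (Hbo1def/+; T/+) and the HBO1 library of control cells were not analysed here, so every statement is about the level left in the knockout libraries and none is about a change. All mice of the series received poly(I:C), which triggers an interferon response and through it induces the Mx1-cre transgene. Mx1-cre is active in many interferon-responsive cells, not in LSK cells alone. The labels do not spell out what T stands for, give no age, and do not say whether the 2 libraries came from separate mice. A difference between them may therefore be technical.

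HBO1 (KAT7) is a lysine acetyltransferase that works in a complex with ING, MEAF6 and JADE or BRPF subunits and acetylates histone H3, lysine 14 included. H3K14ac lies mainly around the start sites of active genes, and other acetyltransferases, among them GCN5, PCAF and p300/CBP, can also make it. CUT&Tag maps such a mark by tethering the Tn5 transposase to an antibody, so that DNA near the mark is cut and tagged.

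Whole reads were counted over 27179 genes in 3 region classes: the gene body, the 5 kb before the start (upstream) and the 5 kb past the end (downstream). Replicate 1 had 1065978 upstream, 4723549 gene body and 677213 downstream counts. Replicate 2 had 869859, 6031189 and 732658. The median gene held 23 and 27 upstream counts, 61 and 61 gene body counts and 15 and 22 downstream counts. Throughout, a pair of values gives replicate 1 and then replicate 2, CPM is the standard depth-scaled count, here over all counts of that region class in that library, and CPM per kb divides by the deposited gene length or by the 5 kb window. A CPM is a share of a library: fewer cells and less mark per cell cannot be told apart, and the sources used here name no spike-in.

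A listed 0 was not read as absence of the mark. Of 747 gene bodies of 2000 bp or more that lie inside another gene by RefSeq positions, 566 (75.8%) were at 0 in both libraries, against 210 of 19959 (1.05%) of the others. Of 318 upstream windows that share more than 4750 of their 5000 bp with the upstream window of another gene, 155 (48.7%) were at 0 in both. Of windows that share none with another upstream window, 288 of 19880 (1.45%) were. Genes such as Cd27, Dusp1 and Socs3 were listed at 0 over the body in both libraries, and their upstream windows held 107 and 120, 521 and 217, and 112 and 105 CPM.

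The highest upstream windows of the knockout libraries belonged to stress-response regulators, nuclear RNA and blood cell genes. Zfp36 (Entrez 22695, chr7:28376784-28379228, minus strand, RefSeq positions on GRCm38.p6), which encodes an RNA-binding protein that destabilises cytokine mRNAs, was first of all genes with 1334 and 647 CPM (mean 991 ± 486, SD, n = 2). Per1 (chr11:69095108-69109965), a circadian clock repressor, followed with 1185 and 553 CPM. Fos, a subunit of the AP-1 transcription factor, held 849 and 389 CPM. The window before Neat1, the RNA scaffold of paraspeckles, held 820 and 332 CPM. The median of all genes was 4.32 and 6.21 CPM per kb for the same 5 kb windows, where Zfp36 had 267 and 129.

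Several of the next windows belonged to myeloid and blood progenitor genes. Ncf1, a subunit of the phagocyte NADPH oxidase, held 752 and 356 CPM, and Srgn, the core protein of the serglycin proteoglycan of granules, held 712 and 286. The window of Nlrp3, the inflammasome sensor, held 623 and 298 CPM. Cdk6, a kinase of G1 progression, held 570 and 307 CPM, and Hlx, a homeobox regulator of blood cells, held 602 and 289. In the highest named windows plotted by library, replicate 1 was above replicate 2 every time.

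**Figure D1:**
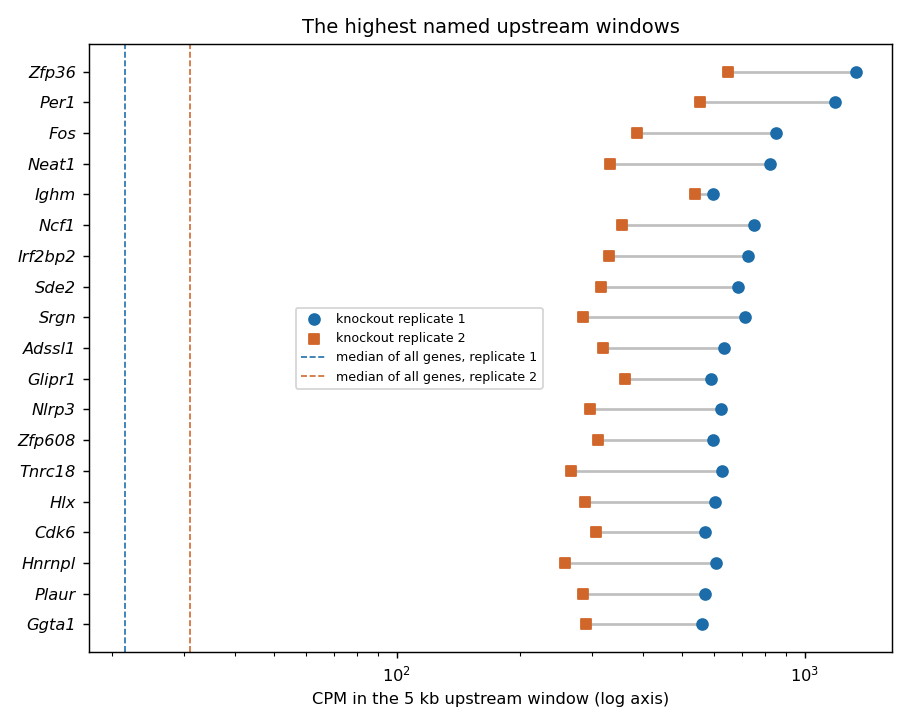
CPM in the 5 kb upstream window (log axis) of named genes among the 20 with the highest mean of the 2 knockout libraries, with circles for replicate 1, squares for replicate 2 and dashed lines for the median of all genes in each library. Zfp36 leads with 1334 and 647 CPM, and Ighm, at 595 and 539 CPM, shows the smallest distance between the libraries.

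Ighm, the constant region of the IgM heavy chain, had a smaller gap between the libraries than the other windows plotted, with 595 and 539 CPM. Most constant region genes of the heavy chain locus are preceded by a switch region, the repeats used in class switching. The window before Ighe held 183 and 314 CPM and the window before Igha 104 and 183 CPM, both higher in replicate 2. Those before Ighg3 (46.0 and 130 CPM) and Ighg1 (41.3 and 120 CPM) also had more in replicate 2. Of the 20 constant region genes, including those of light chains and T cell receptors, 3 were in the highest 10% of upstream windows in both libraries (Ighm, Ighe and Igha). None of the T cell receptor constant genes was. These genes were picked after their values were seen, and how reads in repeats were placed is not given in the sources used here.

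For 21 groups of genes, the number of members in the highest 10% of all genes in both libraries was counted. Of all 27179 upstream windows, 1776 (6.53%) met this, which is the share to read each group against. Level was also set against genes of the olfactory and vomeronasal receptor families, few of which are known to be used in blood. Their median was 1.13 and 2.07 CPM per kb upstream, so the median gene lay 3.83 and 3.0 times above them. These families hold near-identical copies, among which reads may not have been placed, and the part of this in their level was not tested. Among genes other than receptors, 23.2% exceeded the 95th percentile of the receptor windows in both libraries. Over gene bodies 5.5% did, and downstream 20.9%.

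Immediate-early genes, which cells switch on within minutes of a stimulus or stress, held the most. Of 26 upstream windows, 20 were in the highest 10% in both libraries, and the group median was 36.4 and 23.3 CPM per kb. Besides Zfp36, Per1 and Fos, Junb held 568 and 215 CPM, Egr1 held 423 and 276, Jun held 453 and 212, and Ier2 held 470 and 201. Myc, a driver of growth, held 176 and 106 CPM. The members left out were Klf4, Btg1, Fosl2, Ier5, Klf6 and Ier3. Of these, Klf6 (13.1 and 6.90 CPM) and Ier3 (9.38 and 5.75 CPM) share 3396 and 3393 bp with the upstream window of another gene. Immediate-early genes are also known to respond to cell isolation, whose part in these levels was not tested.

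Of the ubiquitin and heat shock genes, 6 of 16 windows were in the highest 10% in both libraries, and the median was 21.3 and 12.9 CPM per kb. The cytosolic chaperone gene Hsp90ab1 held 319 and 156 CPM, and Ubb, a polyubiquitin gene, held 276 and 147. The inducible Hspa1b (101 and 48.3 CPM) and Hspa1a (31.0 and 23.0 CPM) and the master regulator Hsf1 (14.1 and 17.2 CPM) were not among the 6.

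Blood stem and progenitor genes were the next point of interest, because the sort is defined by them. Of 38 genes, 12 were in the highest 10% of windows in both libraries and 22 exceeded the receptor level. Transcription factors of the stem cell network led. Tal1 held 371 and 232 CPM, Etv6 held 255 and 141, Fli1 held 244 and 146, Runx1 held 199 and 131, Lyl1 held 213 and 114, and Gata2 held 114 and 112. Gfi1, a repressor needed by stem cells and granulocytes, held 257 and 123 CPM, and Meis1, a Hox cofactor, held 135 and 78.2. Of the cell surface markers, Flt3 (134 and 93.1 CPM), Cd48 (106 and 95.4 CPM) and Cd27 (107 and 120 CPM) were in the highest 10% in both. Flt3 and Cd48 mark progenitors more than long-term stem cells.

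Genes that mark the gate or stem and progenitor cells were mostly lower than those above and mostly higher in replicate 2. Among all 27179 upstream windows 9475 were higher in replicate 1, so this direction is not particular to these genes. The share depended on level: 28.99% of windows in the seventh and 57.8% in the ninth of 10 classes by mean CPM were higher in replicate 1. Of the surface markers above, Flt3 and Cd48 were higher in replicate 1 and Cd27 in replicate 2. Kit held 26.3 and 41.4 CPM, Ly6a (Sca-1) held 46.0 and 81.6, Cd34 held 58.2 and 88.5, Slamf1 held 36.6 and 83.9, and Procr held 27.2 and 46.0. Tek, the angiopoietin receptor, held 25.3 and 83.9 CPM. All of these lay above the median of all upstream windows, which was 21.6 and 31.0 CPM. In replicate 2, though not in replicate 1, Ly6a, Cd34, Slamf1 and Tek were in the highest 10%. That class began at 14.3 CPM per kb in replicate 2. Over gene bodies 3 of these markers were checked against the median of all genes (0.898 and 0.884 CPM per kb) and lay above it, with a mean of 1.78 CPM per kb for Kit, 4.08 for Ly6a and 1.91 for Cd34. Hlf (30.02 and 27.6 CPM), Mecom (15.0 and 33.3 CPM) and Prdm16 (0.938 and 2.30 CPM) were not in the highest 10% upstream. The window of Prdm16 shares 4007 bp with the upstream window of another gene.

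Of the other blood lineages, granulocyte and monocyte genes held the most: 11 of 22 windows were in the highest 10% in both libraries, with a median of 22.1 and 16.0 CPM per kb. Ctsg, a granule protease, held 462 and 231 CPM, Mpo, the myeloperoxidase gene, held 298 and 133, Cebpe held 159 and 87.4, and Spi1 (PU.1) held 112 and 101. Primary granule genes are also expressed in early myeloid progenitors. Of 22 erythroid and megakaryocyte genes found, 1 was in the highest 10% in both (Nfe2, 422 and 252 CPM), and Gata1 (34.7 and 33.3 CPM) and Klf1 (31.9 and 24.1 CPM) were near the median. None of 22 B and T cell genes and none of 20 stromal and endothelial genes was. The highest of these were Rag2, a recombinase gene of lymphocytes, with 38.5 and 129 CPM, and Igll1, a surrogate light chain gene, with 94.7 and 57.5 CPM. Summed upstream levels were 2634 and 1788 CPM for granulocyte and monocyte genes, 1135 and 1169 for erythroid and megakaryocyte genes, 697 and 1078 for B and T cell genes, and 434 and 739 for stromal and endothelial genes. No window of these 4 marker lists was at 0 in both libraries. The part of other cells in the sorted fraction in these levels was not tested.

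Interferon response genes are of interest because poly(I:C) was given to every mouse. Of 24 genes found of 25, 5 were in the highest 10% in both libraries. Mx1, whose promoter drives the recombinase transgene, held 148 and 214 CPM. The part of reads from that transgene in the Mx1 window was not tested. Mx2 held 131 and 148 CPM, Rsad2 held 172 and 124, Irf1 held 148 and 92.0, and Irf7 held 85.4 and 83.9. Classical induced genes such as Ifit1 (30.02 and 57.5 CPM), Isg15 (21.6 and 29.9 CPM) and Oasl2 (29.1 and 32.2 CPM) were not in that group.

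**Figure D2:**
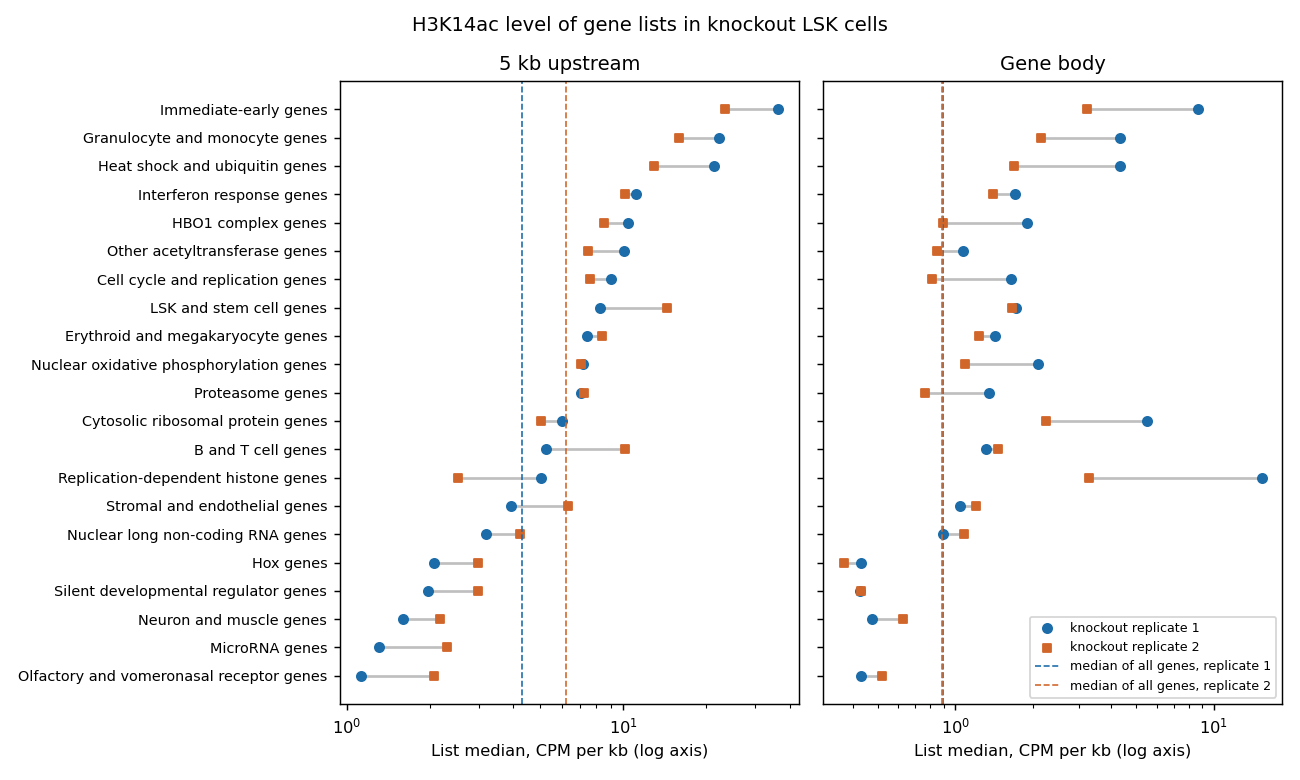
Median level of each gene list in CPM per kb (log axis), upstream on the left and over the gene body on the right, with circles for replicate 1, squares for replicate 2 and dashed lines for the median of all genes. Immediate-early genes lead upstream with 36.4 and 23.3 CPM per kb, histone genes lead over gene bodies with 15.3 and 3.30, and receptor genes lie lowest upstream with 1.13 and 2.07.

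The genes of the HBO1 complex carried moderate levels. Of 10 genes, Jade2 alone was in the highest 10% in both libraries, with 215 and 110 CPM. Brpf1, another scaffold subunit, held 127 and 66.7 CPM, Ing4 and Ing5, which read H3K4 methylation, held 108 and 41.4 and 74.1 and 54.0, and Meaf6 held 30.02 and 24.1. Kat7 itself (chr11:95271853-95310246, minus strand) held 15.9 and 25.3 CPM upstream, 34.0 and 13.6 CPM downstream and 477 and 262 counts over its body, or 2.63 and 1.13 CPM per kb. Counts over the whole gene do not show whether a part of it was deleted, so they check nothing about the genotype. Of the 16 other acetyltransferase genes, Kat5 (TIP60) was in the highest 10% in both, at 113 and 75.9 CPM. Ep300 (93.8 and 50.6 CPM), Crebbp (80.7 and 56.3 CPM) and Kat2b (PCAF; 70.4 and 49.4 CPM) were above the median, and Kat2a (GCN5; 28.1 and 21.8 CPM) lay near it.

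Housekeeping groups stood close to all genes upstream: 8 of 85 ribosomal protein genes, 6 of 88 nuclear oxidative phosphorylation genes, 2 of 40 proteasome genes and 4 of 36 cell cycle genes were in the highest 10% in both. The cell cycle members were Cdk6, the D-type cyclin gene Ccnd2 (430 and 174 CPM), the ribonucleotide reductase gene Rrm2 (175 and 77.0 CPM) and the licensing factor gene Cdt1 (144 and 79.3 CPM). Among 643 microRNA genes 14 windows (2.18%) were in that group, against 6.53% of all windows. By RefSeq positions 427 of the 643 lie inside another gene, so such a window can cover that gene's body. Mir21a led with 801 and 400 CPM, and Mir142, a blood cell microRNA, held 532 and 259.

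Genes of other tissues held little. None of 30 silent developmental regulators, 24 neuron and muscle genes, 39 Hox genes or 1466 receptor genes was in the highest 10% of windows in both libraries. None of the 30 regulators exceeded the 95th percentile of the receptor genes in both, although their start sites are rich in CpG. The highest were Nkx6-1 (20.6 and 18.4 CPM) and Olig2 (17.8 and 19.5 CPM). Among Hox genes, Hoxb3 (103 and 52.9 CPM), Hoxa7 (41.3 and 67.8 CPM) and Hoxa9 (50.7 and 57.5 CPM) stood above the rest. Genes of the HoxA and HoxB clusters are the ones chiefly used in blood progenitors. Hoxd4 was listed at 0 in both, and its window shares 4153 bp with the upstream window of another gene.

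CpG content of the start site went with the upstream level. The ratio of observed to expected CpG was computed for the 300 bases around each RefSeq start, for 25189 genes. The 9692 genes with a ratio of 0.6 or more had a median of 6.75 and 6.90 CPM per kb, against 3.38 and 5.98 for the 15497 genes below it. The distance between the classes was therefore larger in replicate 1. Of the CpG-rich windows 10.5% were in the highest 10% in both libraries, and of the others 4.47%. At a ratio of 0.8 or more this share was 12.1%, and under 0.2 it was 3.66%.

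Starts of like CpG content differed in level, and 6 promoters serve as examples. They were picked by level and CpG content, so their contrast follows from the choice and tests nothing. CpG were counted in 250 bases, and the level covers the 5 kb window. The first pair has the highest upstream levels of CpG-rich starts, the second pair the highest of starts with a CpG ratio under 0.2, and the last pair is the lowest silent regulator and a receptor gene from the middle of its family. They were taken from genes whose deposited length equals the RefSeq length and whose window shares no base with the upstream window of another gene. Each line gives the 250 bases before the RefSeq start on GRCm38.p6, 5′ to 3′ on the gene's strand, with CpG in capitals.
Zfp36, chr7:28379229-28379478, minus strand: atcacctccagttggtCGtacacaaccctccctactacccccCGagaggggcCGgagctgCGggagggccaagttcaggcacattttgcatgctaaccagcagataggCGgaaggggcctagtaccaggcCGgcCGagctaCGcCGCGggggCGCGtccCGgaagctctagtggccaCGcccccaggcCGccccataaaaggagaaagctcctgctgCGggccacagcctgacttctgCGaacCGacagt
Sde2, chr1:180850901-180851150, plus strand: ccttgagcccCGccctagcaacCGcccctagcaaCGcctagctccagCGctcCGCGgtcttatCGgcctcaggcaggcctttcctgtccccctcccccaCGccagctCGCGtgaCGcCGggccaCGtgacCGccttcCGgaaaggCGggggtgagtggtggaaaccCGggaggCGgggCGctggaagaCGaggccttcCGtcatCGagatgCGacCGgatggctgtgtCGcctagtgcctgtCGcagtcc
Bex6, chr16:32179550-32179799, plus strand: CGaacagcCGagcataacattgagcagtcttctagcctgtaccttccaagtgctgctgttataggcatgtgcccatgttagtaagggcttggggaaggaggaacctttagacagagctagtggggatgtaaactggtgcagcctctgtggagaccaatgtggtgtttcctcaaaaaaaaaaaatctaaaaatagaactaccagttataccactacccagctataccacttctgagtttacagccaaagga
Mpo, chr11:87793534-87793783, plus strand: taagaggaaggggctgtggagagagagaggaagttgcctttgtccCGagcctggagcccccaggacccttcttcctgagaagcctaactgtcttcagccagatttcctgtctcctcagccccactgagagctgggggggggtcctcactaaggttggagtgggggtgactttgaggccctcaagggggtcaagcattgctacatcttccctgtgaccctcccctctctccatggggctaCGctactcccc
Sox1, chr8:12395269-12395518, plus strand: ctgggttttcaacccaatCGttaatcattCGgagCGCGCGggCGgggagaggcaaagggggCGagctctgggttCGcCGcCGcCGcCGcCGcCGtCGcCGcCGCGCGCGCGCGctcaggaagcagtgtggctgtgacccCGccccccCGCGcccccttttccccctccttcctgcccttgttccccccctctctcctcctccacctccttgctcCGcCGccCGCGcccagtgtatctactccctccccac
Olfr913, chr9:38592553-38592802, plus strand: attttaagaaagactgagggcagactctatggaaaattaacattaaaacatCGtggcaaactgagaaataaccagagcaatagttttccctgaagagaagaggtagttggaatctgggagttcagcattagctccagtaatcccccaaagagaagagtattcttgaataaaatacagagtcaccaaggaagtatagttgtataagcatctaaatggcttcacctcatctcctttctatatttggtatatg
Zfp36 has 18 CpG in these bases and Sde2, which encodes a splicing and replication factor, has 26, and Sde2 held 684 and 316 CPM upstream. Bex6 and Mpo have 2 each, and held 371 and 184 CPM and 298 and 133 CPM. Sox1, a neural regulator, has 29 CpG, more than any of the others, and held 2.81 and 3.45 CPM, or 3 counts in each library. The receptor gene Olfr913 has 1 CpG and held 9.38 and 5.75 CPM, from 10 and 5 counts.

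Short motifs were searched on both strands of 18457 RefSeq promoters, from 250 bases before to 50 after the start, and 1358 of these belong to windows in the highest 10% in both libraries. The GC box (GGGCGG) was in 63.0% of these 1358 (95% Wilson interval 60.4% to 65.6%) and in 46.0% of all promoters. Among CpG-rich promoters alone the GC box was in 75.6% of the high ones and 72.6% of all. The cAMP response element (TGACGTCA) was in 4.34% of the high promoters (3.38% to 5.56%) and 2.34% of all, and the ETS motif (CCGGAAG) in 15.5% (13.6% to 17.5%) and 11.7%. The TATA box (TATAAA) was in 8.69% (7.31% to 10.3%) and 13.1%, but among CpG-rich promoters in 7.28% of the high ones (5.70% to 9.26%) and 6.398% of all. The CCAAT motif (CCAAT) was in 36.2% and 39.2%, the AP-1 motif (TGANTCA) in 5.74% and 7.32%, and the NRF1 motif in 1.18% and 1.29%. The letters of the GC box, the cAMP response element, the ETS and the NRF1 motif hold a CpG, and among CpG-rich promoters the ETS motif was in 18.8% of the high ones and 20.1% of all, and the cAMP response element in 4.98% (3.69% to 6.68%) and 4.06%. The high windows of replicate 2 taken alone had the GC box in 52.4% of promoters, and those of replicate 1 alone in 63.6%. A match describes the letters in the window and nothing about a bound factor.

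Over gene bodies, total counts followed length. Among the 10 genes with the highest gene body CPM were Wwox, Fhit, Pde4d, Lrmda, Auts2, Pard3b, Nav2, Prkg1 and Magi2. All are very long: Wwox, an oxidoreductase gene in a fragile site, spans chr8:114439635-115352712 and held 1292 and 1632 CPM, and Fhit, in another fragile site, held 1095 and 1692. Per kb they were ordinary, at 1.41 and 1.79 for Wwox and 0.679 and 1.05 for Fhit. The 922 genes over 200 kb make up 36.9% of the summed length and held 26.5% and 32.7% of the counts, and 0.542% of them were in the highest 10% per kb in both libraries. Of genes between 1 and 3 kb, 14.4% were.

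Density per kb gave another order. Of all gene bodies 1608 (5.92%) were in the highest 10% per kb in both libraries. Among genes of at least 1000 bp, Neat1 was first with 55.0 and 12.1 CPM per kb over its deposited length of 3177 bp, which is shorter than the 20773 bp of RefSeq. Rpl41, a ribosomal protein gene (chr10:128548110-128549168), had 50.6 and 12.5, and Ier2, an immediate-early gene (chr8:84661331-84662852), had 51.0 and 11.4. Also among the 20 highest were the interferon-induced Ifitm2 with 42.8 and 14.6 and the antioxidant enzyme gene Gpx1 with 39.2 and 10.5. Myeloid and lymphoid effector genes were among the 20, with Ctsg at 31.8 and 7.69, the chemokine gene Ccl3 at 27.7 and 12.6 and the cytotoxic granule gene Nkg7 at 30.7 and 10.6.

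Histone genes were the densest list. Of 67 replication-dependent histone genes, 46 were in the highest 10% in both libraries, with a median of 15.3 and 3.30 CPM per kb, and 9 were at 0 in both. The linker histone gene H1f2 had 38.0 and 9.35 CPM per kb, from 280 and 88 counts. These genes lie in dense clusters, and upstream 6 of 67 windows were in the highest 10% and 16 were at 0 in both. Near-identical copies can also split or lose reads, and how the authors placed such reads is not given in the sources used here.

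Ribosomal protein genes gave 51 of 85, with a median of 5.53 and 2.25 CPM per kb, immediate-early genes 17 of 26 (8.68 and 3.23), granulocyte and monocyte genes 12 of 22 (4.33 and 2.14) and stem and progenitor genes 11 of 38 (1.72 and 1.65). In the last group the densest body was that of Lyl1 with 25.4 CPM per kb in replicate 1 and a mean of 15.8, followed by Cdkn1a (mean 6.37), Erg (mean 4.99) and Lmo2 (mean 4.71). Other lists showed single dense bodies. Mpo had 157 and 40.5 CPM over its body (mean 9.28 per kb) and S100a8 had 15.5 and 8.29 (mean 12.3 per kb). Of 10 nuclear long non-coding RNA genes, 4 were in the highest 10% in both: Neat1, Malat1 (mean 13.1 CPM per kb), which is found in nuclear speckles, and the snoRNA host genes Gas5 (mean 10.95) and Snhg1 (mean 5.62). Of 24 interferon genes 5 were, led by the immunoproteasome gene Psmb8 (mean 4.80). The imprinted Meg3 (mean 1.11) and H19 (mean 0.800) were near the median of all genes. For some stem and progenitor genes the body total exceeded that of the window: Erg had 1091 and 608 CPM over its body and 37.5 and 87.4 upstream. None of the 10 HBO1 complex genes, 16 other acetyltransferase genes, 20 stromal genes, 30 silent regulators or 24 neuron and muscle genes was in the highest 10% of gene bodies in both. Their median lengths were 38029, 74830.5, 39290.5, 5507 and 245700 bp, against 469 bp for histone and 2905 bp for ribosomal protein genes. Of all genes between 3 and 10 kb 7.99% were in that class, and of those between 30 and 100 kb 1.86%. The part of length in the list counts was not tested.

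A few dense gene bodies were unlike the rest in having similar levels in both libraries. The mitochondrial genes CYTB (27.2 and 24.5 CPM per kb), ND5 (22.4 and 23.9) and ND2 (18.8 and 25.2) were among the 20 highest. The 15 mitochondrial genes had a median of 12.7 and 11.5 CPM per kb and held 0.0202% and 0.0208% of gene body counts. Mitochondrial DNA carries no histones, and the part of such reads in other levels was not tested. Of immunoglobulin and T cell receptor gene segments, which are under 1 kb for the most part, 42.7% of the 82 J segments and 27.0% of the 374 V segments were in the highest 10% in both libraries, on few counts each.

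Genes on the X chromosome had lower levels than autosomal genes in both libraries. The median gene body level was 0.314 and 0.357 CPM per kb for 1164 X-linked genes and 0.970 and 0.957 for 23909 autosomal genes, a ratio of 0.324 and 0.373. Upstream the ratio was 0.320 and 0.379. Among protein-coding genes that overlap no other gene it was 0.345 and 0.398 over bodies. The mice were male, with a single X chromosome per cell, and the part of copy number in these values was not tested.

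Many of the highest downstream windows reached another gene's start. Med29, a Mediator subunit gene, was first with 2086 and 771 CPM, and by RefSeq positions its window covers most of the upstream window of Zfp36. The window of Vamp2 (1418 and 495 CPM) holds the start of Per1, that of Tyrobp (1329 and 456 CPM) those of Hcst and Nfkbid, and that of Inf2 (1057 and 397 CPM) that of Adssl1. Among the highest 1% of downstream windows with a position, 138 of 236 (58.5%) held another gene's start, against 15.4% of all. In the highest 10% in both libraries, which 1510 (5.56%) of all downstream windows reached, 566 of 1361 with a position (41.6%) did. Upstream, 15.7% of the high windows and 14.7% of all held another start.

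The gene lists kept part of their order downstream. Immediate-early genes had 10 of 26 windows in the highest 10% in both libraries, led by Zfp36 with 752 and 262 CPM, Zfp36l2 with 670 and 277 and Ier2 with 529 and 228. Ier3 and Klf6, which were low upstream, held 210 and 91.4 CPM and 180 and 80.5 CPM downstream. Granulocyte and monocyte genes had 6 of 22, with Prtn3 at 357 and 104 CPM, Cebpe at 281 and 160 and the calprotectin gene S100a8 at 139 and 94.2. By RefSeq positions the downstream window of Zfp36 holds the start of Plekhg2. That of Prtn3 holds the start of Elane, a member of the same list. Stem and progenitor genes had 6 of 38, and B and T cell genes 6 of 22. In the stem and progenitor list Cdkn1a, the p21 cell cycle inhibitor gene, was first with 291 and 525 CPM, and it was higher in replicate 2. Ly6a held 247 and 91.4 CPM past its end. Of 67 histone genes 7 were in the highest 10% in both. Replicate 1 had 29 in its highest 10% and replicate 2 had 7, those high in both included. None of 30 silent regulators was.

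For each gene, the upstream density was set against its own body as log2 of (counts + 1) per kb over (counts + 1) per kb. The median was 0.07 and -0.04 over all genes, 0.35 and 0.11 for CpG-rich starts and -0.98 and -0.94 for receptor genes. In the windows of the highest 10% it was 1.78 and 1.18, which follows in part from choosing them by the upstream level. Of the 1608 gene bodies and 1776 upstream windows that were high in both libraries, 415 genes were shared, which is 25.8% of the first and 23.4% of the second.

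The signal was more concentrated in few upstream windows in replicate 1 than in replicate 2. The highest 1% of upstream windows held 10.2% and 5.54% of upstream counts, and the highest 10% held 42.5% and 28.2%. The first 3713 windows held 50% of the counts in replicate 1, and 6349 were needed in replicate 2. The Gini coefficient, which is 0 for equal counts in every gene and 1 for all counts in a single gene, was 0.571 and 0.427. Downstream windows behaved alike, with 13.2% and 5.55% of counts in the highest 1% and Gini coefficients of 0.578 and 0.453.

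Over gene bodies the order of the libraries turned with the measure. By total counts, the highest 10% of genes held 56.8% in replicate 1 and 61.6% in replicate 2, with Gini coefficients of 0.720 and 0.752. Gene length itself had a Gini coefficient of 0.725. Per length, replicate 1 was again the more concentrated: the densest 10% of the summed gene body length held 29.7% and 20.9% of the counts, and the Gini coefficient per length was 0.410 and 0.327. With 2 libraries of 1 group there is no test of these differences.

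**Figure D3:**
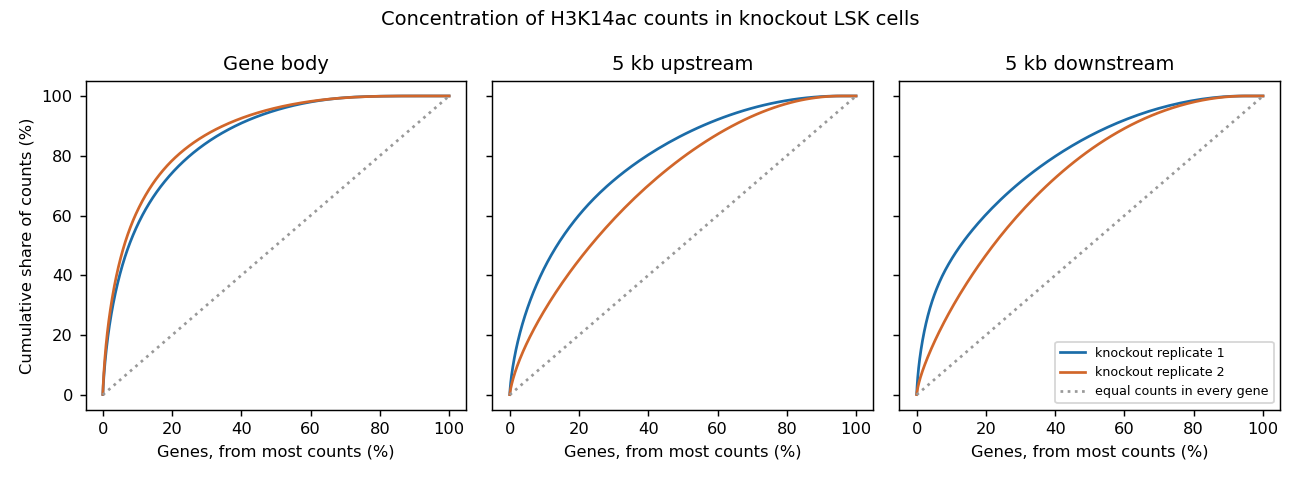
Cumulative share of counts (%) against the share of genes (%), ordered from the gene with most counts, for gene bodies, upstream and downstream windows, with a line for each knockout library and a dotted line for equal counts. The line of replicate 1 lies above that of replicate 2 in both flanks, where its highest 10% of windows held 42.5% against 28.2% upstream, and slightly below it over gene bodies, at 56.8% against 61.6%.

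The libraries ranked genes alike over bodies and less so in the flanks. Over genes with at least 10 counts in either library, Spearman's rho between the 2 libraries was 0.929 for 20889 gene bodies, 0.726 for 22682 upstream windows and 0.743 for 21088 downstream windows. Pearson's r of log2(CPM + 1) was 0.934, 0.745 and 0.722. These are descriptions across genes, which share a library and are not independent replicates, and the gene body values also share length. Of the 1000 highest genes by CPM in each library, 804, 703 and 596 were common to both.

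More than 2-fold between the libraries lay 13.5% of gene bodies, 28.0% of upstream windows and 25.7% of downstream windows, on (CPM + 1). Of gene bodies 12.2% (2539) were higher in replicate 1 and 1.31% (273) in replicate 2. Of upstream windows 4.82% (1094) were higher in replicate 1 and 23.2% (5262) in replicate 2, and downstream 7.6% (1603) and 18.1% (3813). The variance of the counts between the libraries was 18.97, 6.63 and 5.88 times that of Poisson counting for bodies, upstream and downstream. The biological coefficient of variation of edgeR, the spread beyond counting, was 31.5%, 36.3% and 34.1%.

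**Figure D4:**
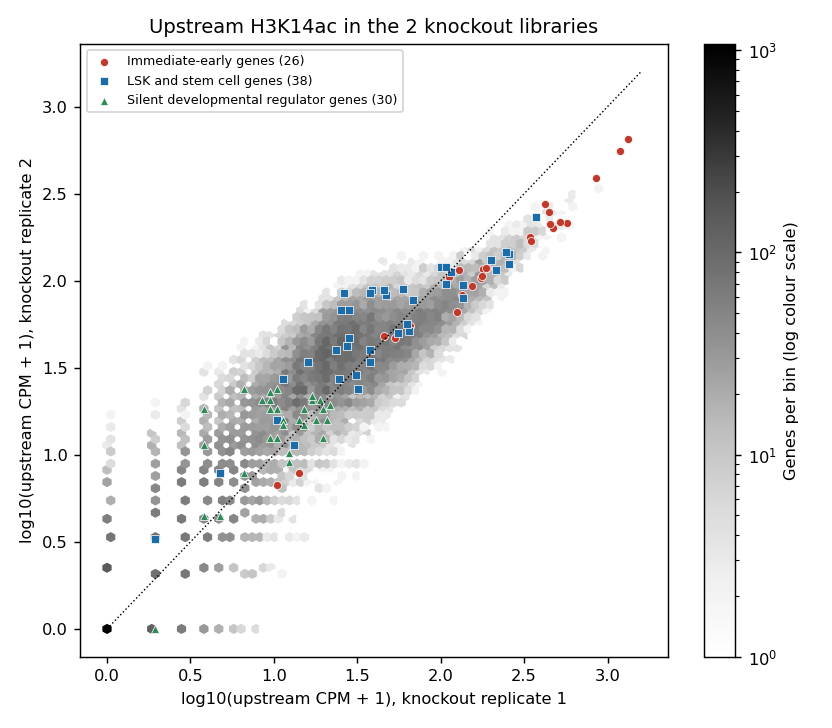
Upstream level of all 27179 genes in the 2 knockout libraries as log10(CPM + 1), with the number of genes per hexagon in grey (log colour scale), 3 gene lists as coloured points and equal levels as a dotted line. Immediate-early genes lie at the high end and mostly below the line, silent developmental regulators at the low end, and stem and progenitor genes on both sides of the line, with 17 of 38 higher in replicate 1.

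The direction of the difference depended on the level. In the highest 10% of upstream windows by mean, the median of replicate 1 over replicate 2 was 1.55, on (CPM + 1), and 89.3% of windows were higher in replicate 1. From the second to the seventh of the 10 level classes it was between 0.628 and 0.706. Downstream the highest class had 1.60, and gene bodies, where the highest class is made of long genes, had 0.860. Most lists with many high windows shared the direction of all genes in that class: all 21 immediate-early genes among the highest 10% by mean were higher in replicate 1, as were all 15 granulocyte and monocyte genes, beside 2428 of 2718 genes in all. Stem and progenitor genes in that class gave 10 of 12, interferon genes 4 of 7.

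Which library was used changed several list counts by more than 1.5 times. Each count here includes the genes that were high in both libraries. Replicate 1 had 12 stem and progenitor windows in its highest 10%, and replicate 2 had 19. The reverse held for cell cycle genes, with 11 windows in replicate 1 and 4 in replicate 2, nuclear oxidative phosphorylation genes with 14 and 6, proteasome genes with 7 and 2, and histone genes with 20 and 6. Over gene bodies, oxidative phosphorylation genes gave 31 and 8, cell cycle genes 9 and 4, and B and T cell genes 1 and 6. Receptor genes, the background group, gave 0 windows in replicate 1 and 16 in replicate 2, and 22 and 123 gene bodies. Immediate-early genes gave 21 and 20 windows and granulocyte and monocyte genes 14 and 14.

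**Figure D5:**
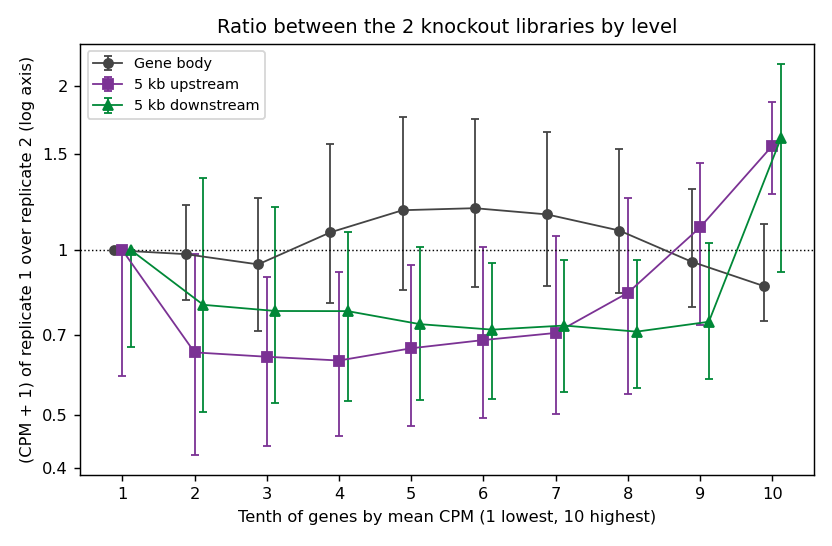
Median ratio of replicate 1 over replicate 2, on (CPM + 1) and a log axis, in 10 classes of genes by mean CPM, with bars for the quartiles over genes, for each region class. The upstream ratio is under 0.71 in the second to seventh class and 1.55 in the highest, and the gene body ratio stays between 0.860 and 1.19.

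Among upstream windows above the median mean level, Coro7 (59.1 and 10.3 CPM) and Aldh3b1 (81.6 and 17.2 CPM) had the largest ratios of replicate 1 over replicate 2, followed by Stkld1, Slc39a7 and Arhgdia. Fat3 (4.69 and 57.5 CPM) and Ppp1r14c (7.50 and 62.1 CPM) had the largest ratios the other way, along with Pdk4, Dkk3 and Oxgr1. Over bodies, Mt1, a metallothionein gene, had 33.9 and 4.64 CPM, and Prtn3, a granule protease gene, had 53.1 and 9.62. At the other end, the lowest protein-coding gene bodies of at least 10000 bp were Cphx2, Cphx3, Plac9b, Vmn2r46 and Amy2a2, all listed at 0 in both libraries. These belong to families of near-identical copies, among which reads may not have been placed.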

How the data were processed

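H3K14ac was profiled by CUT&Tag in 2 knockout LSK libraries, grouped by their labels. Per the file headers, the authors deposited whole-number read counts for each Entrez gene over its body and its 5 kb flanks. The submitters' processing notes name featureCounts and mm10. No label or header gives the aligner, duplicate handling, read filters or a spike-in. Gene lengths in bp are the authors' own values. The series tables matched the per-library files in all 163074 values compared, and 2 other per-sample columns in each table were not used. Without molecular identifiers reads may not be independent molecules, so intervals cover counting error only.

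Symbols (25275 genes, 93.0%), positions (25197 genes) and promoters (18457) came from RefSeq on GRCm38.p6. Deposited lengths equalled RefSeq for 45.7% of genes and lay within 20% for 89.1%, and the files give no window coordinates, so positions describe RefSeq genes. CPM used the region class total. With 1 group of 2 libraries no test was made. Dispersion came from edgeR 4.0.16 (R 4.3.3). The rest used pandas 2.3.3 and numpy 2.4.6 in Python 3.11.15, intervals scipy 1.17.1 and plots matplotlib 3.10.9, and the measures were tested on simulated data. Members, gene lists and measures were chosen with earlier results of these data known. Named genes had a proper symbol and were the 20 highest by gene body CPM per kb (at least 1000 bp, 50 counts in both) and by upstream CPM, the 10 highest by gene body and by downstream CPM, the 5 most unequal each way over bodies and upstream, the 5 lowest bodies of at least 10000 bp, Kat7, and of each list the 4 highest and 2 lowest by gene body CPM per kb. Other list members, promoter examples, microRNAs, constant region genes and examples of listed 0 were chosen after their values were seen. Some genes that meet these rules are not reported here.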

Additional observations from a re-analysis of the deposited data

How the results depend on the processing

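No paired analysis was possible because the 2 libraries form a single group and no test was made. Of 163 alternative values of the main measures, 132 were within a set tolerance of the value reported and 31 moved. The tolerance was the spread of the libraries where each gives a value, 0.05 for correlations, 1.5 times for counts, and the binomial interval for shares of genes or promoters. Where it was the spread of the libraries, the value of a single library lay within it by construction. A wider gap between the libraries also widened it. Spearman's rho could not move with the pseudocount or TMM scaling, which leave ranks unchanged. The numbers within tolerance are therefore no measure of how stable the results are. Of 2505 values of single genes and lists 1824 were within it and 681 moved. The sole change of sign was in the median log2 of upstream over gene body, which was -0.04 without replicate 1 and 0.07 without replicate 2. The values of each library alone stand in the report. Restricting to genes with at least 10 counts in both libraries took the mean share of the highest 10% of gene bodies from 59.2% to 51.7%, that of the highest 1% from 16.3% to 13.1%, and the Gini coefficient from 0.736 to 0.644 over bodies, 0.499 to 0.390 upstream and 0.515 to 0.377 downstream. The gene body coefficient was 0.6995 without bodies under 1 kb and 0.709 among genes that share no ground. Requiring 50 counts in both gave a Spearman rho of 0.871 over bodies, 0.643 upstream and 0.548 downstream, with 9.94%, 10.9% and 36.5% of genes over 2-fold apart. Without a filter rho was 0.834 upstream and 0.863 downstream, Pearson's r 0.877 and 0.876, and 10.7% of bodies and 26.6% of downstream windows were over 2-fold apart. A pseudocount of 0.1 gave 17.3% of bodies, 29.9% upstream and 27.0% downstream, TMM scaling 12.7%, 24.96% and 21.3%, and genes that share no ground 12.4% of bodies and 24.4% downstream. The median log2 of upstream over body moved from 0.02 to 0.14 with at least 10 counts in both regions. Dividing by the total of all 3 region classes lowered the medians by construction, to 0.677 CPM per kb over bodies, 0.709 upstream and 0.520 downstream. Comparisons by shared ground and by receptor level were chosen after seeing the data. Shared ground counts overlap within a region class alone, body with body or window with window of the same class. A window of the median gene held 15 to 27 counts, so small differences between single low genes may lie within counting error, which was not tested. With 2 libraries there is no test of any difference between genes or lists.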
